A study of Drosophila melanogaster and Drosophila simulans with 21 samples.

Results

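Pif1, RecQ4, PolH and gkt encode 2 DNA helicases, a translesion DNA polymerase and a DNA end-processing phosphodiesterase, and their transcripts were followed in whole females of 2 fly species and their hybrid. The genes were chosen by function, with earlier results of these arrays in view, and were found through the annotation of the probe positions. All 4 genes had exactly 1 annotated position each, out of 1943 positions with a single gene symbol and 6101 positions in all. Another position is annotated to Pif1A and Pif1B, a different pair of genes that carries Pif1 as an older synonym, and it was left out. The 4 genes were measured on all 18 arrays that compared different RNAs and belonged to 4753 features tested, of which 1384 were named genes. In the Drosophila melanogaster gene table of Release 6, gkt (CG8825) and Pif1 (CG3238) lie on chromosome arm 2L, and RecQ4 (CG7487) and PolH (CG7143) on 3L.

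Groups were D. melanogaster of the Canton S strain, Drosophila simulans of the Sim-1 strain, and the female F1 hybrids of a cross between Canton S females and Sim-1 males. All were adult females, stored separately at room temperature for 5 to 6 days before freezing in a fixed 2 hour window of the day. The parental females were virgins. Strains were raised at 25 C, and each cross used 7 to 8 males and as many females at 18 C. Per the labels, the extractions were combined into 1 RNA pool per strain, although 2 cohorts were used per cross. Each pair of pools was hybridised on 6 spotted cDNA arrays, with the channels exchanged on 3 of them. On 3 more arrays, a pool was hybridised against itself. The arrays are therefore technical repeats. Every SD and SE below measures the spread between arrays, n is 1 pool per strain, and no test between strains was made. Whether a value belongs to a strain or only to its pool cannot be told apart.

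DNA repair restores damaged chromosomes and lets replication forks pass lesions. Helicases such as Pif1 and RecQ family enzymes separate DNA strands at stalled forks and during recombination. DNA polymerase eta copies past damaged bases, including those left by ultraviolet light, and tyrosyl-DNA phosphodiesterase frees DNA ends from topoisomerase remnants. In flies, maternally supplied replication and repair factors serve the rapid divisions of the early embryo, and the ovary is a major site of their transcription.

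Arrays held values for 4657 to 4946 positions. The deposited ratios were put on a log2 scale with each array's median at 0, so all values are relative to the middle of that array's positions. The labels do not state which channel is the numerator. Signs follow channel 1 over channel 2, a reading adopted after earlier results had been seen, and in the opposite reading every lower value below becomes a higher one. Sizes, counts, and whether the hybrid lies on one side of both parents do not depend on it. The ratios combine transcript level with hybridisation to probes annotated to D. melanogaster genes, and these cannot be told apart for D. simulans and hybrid RNA. In whole flies, fewer cells of a type and less RNA per cell cannot be told apart either.

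Each of the 4 genes had a lower level in hybrid females than in D. melanogaster, by between 3.49-fold for PolH and 6.31-fold for Pif1. Pif1, RecQ4 and PolH were also between 3.09-fold and 5.05-fold lower in the hybrid than in D. simulans, and thus lay far below both parents. Between the parents these 3 genes differed little. The gene gkt had another pattern, with D. simulans 2.43-fold below D. melanogaster and the hybrid only 1.46-fold below D. simulans.

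**Figure D1:**
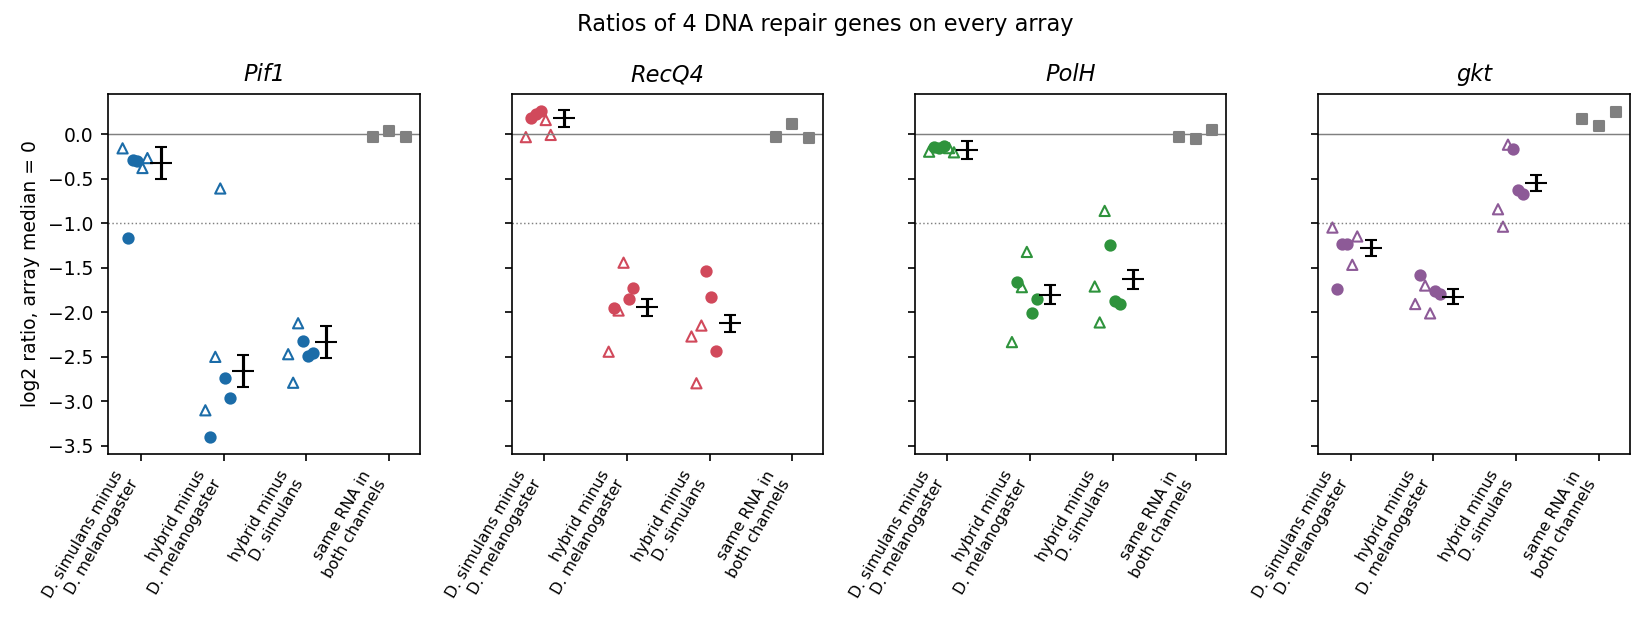
Median-centred log2 ratios (vertical axis) of each gene on every array, in the reading of channel 1 over channel 2. Filled circles are arrays with the first-named RNA in channel 1, open triangles arrays with it in channel 2, grey squares arrays of a pool against itself (from left, D. melanogaster, D. simulans, hybrid), black bars fitted values ± SE, and the dotted line is 2-fold lower. For all 4 genes, the 12 arrays with hybrid RNA lie below 0, and 1 array of Pif1 at -0.61 lies far above the other arrays of its comparison.

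Pif1 encodes a DNA helicase that promotes DNA synthesis during break repair and helps forks through replication stress. On the 6 arrays of hybrid against D. melanogaster its log2 ratio ran from -3.41 to -0.61, with a median of -2.85. Of these arrays 5 lay between -3.41 and -2.50, and the remaining 1 stood apart at -0.61. The mean was -2.55 ± 1.00 (SD, 6 arrays), and the fit over all 18 arrays gave -2.66 ± 0.18 (SE), a 6.31-fold difference. Without the array that stood apart the fitted value was -2.90, with arrays of title numbers 14 to 18 alone -1.95, and with the arrays scaled to a common spread -2.06. The array that stood apart belongs to the set of title numbers 14 to 18. Against D. simulans the hybrid ran from -2.79 to -2.12, with a median of -2.47. These arrays lay closer together, with a mean of -2.44 ± 0.22 (SD, 6 arrays) and a fitted value of -2.34 ± 0.18 (SE, 5.05-fold), which common-spread scaling took to -1.57.

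Among the 4 genes, Pif1 had the largest fitted difference of the hybrid from each parent. Of 4753 features, 63 had a lower fitted value against D. melanogaster and 81 against D. simulans. Between the parents, D. simulans ran from -1.16 to -0.16 relative to D. melanogaster, with a median of -0.30. All 6 arrays were below 0, but 5 lay between -0.38 and -0.16, and the array at -1.16 raised the spread. The fitted difference of -0.32 ± 0.18 (SE, 1.25-fold) was smaller than the SD between arrays of 0.37. Without that array it was -0.24. The order of levels was thus D. melanogaster, then D. simulans, a little below it on each direct array, and then the hybrid, far below both. The fitted size of the small parental step depended in part on the array at -1.16. It moved further, to -0.44, without the array of hybrid against D. melanogaster at -0.61. With title numbers 1 to 8 alone it was -0.58, and with 14 to 18 alone -0.098.

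RecQ4 encodes a RecQ family helicase that in flies is needed for DNA replication as well as repair. Against D. melanogaster, the hybrid ran from -2.44 to -1.44, with a median of -1.90. All 6 arrays were more than 2-fold below the median position. Their mean was -1.90 ± 0.33 (SD), and the fitted value -1.94 ± 0.097 (SE, 3.85-fold), which common-spread scaling took to -1.36. Against D. simulans, the hybrid ran from -2.80 to -1.53, with a median of -2.21, and the fitted value was -2.12 ± 0.097 (SE, 4.36-fold).

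Again no array of these comparisons reached 0. RecQ4 was the single gene of the 4 with a higher fitted level in D. simulans than in D. melanogaster, but by only 0.18 ± 0.097 (SE, 1.13-fold). The 6 direct arrays ran from -0.03 to 0.26, with a median of 0.17, and lay on both sides of 0, with 2 below and 4 above. Their mean was 0.13 ± 0.12 (SD, 6 arrays). The hybrid lay below both parents.

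PolH encodes DNA polymerase eta, a translesion polymerase of the Y family. The hybrid ran from -2.33 to -1.32 against D. melanogaster, with a median of -1.79. The mean was -1.82 ± 0.34 (SD, 6 arrays), and the fitted value was -1.80 ± 0.11 (SE, 3.49-fold). All 6 arrays exceeded 2-fold. Against D. simulans, the hybrid ran from -2.11 to -0.86, with a median of -1.79. Here 5 arrays exceeded 2-fold, 1 at -0.86 did not, and the fitted value was -1.63 ± 0.11 (SE, 3.09-fold).

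The parental arrays of PolH were the tightest set of the 12, from -0.20 to -0.13 with a median of -0.16 and an SD of 0.029. D. simulans was below D. melanogaster on 6 of 6 arrays, with a fitted value of -0.17 ± 0.11 (SE, 1.13-fold). With arrays of title numbers 14 to 18 alone the fitted value, which also draws on hybrid arrays, was -0.051. The direct parental arrays of that set had a mean of -0.15. The hybrid level lay below both parents.

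The gene gkt (glaikit) encodes tyrosyl-DNA phosphodiesterase. In D. simulans against D. melanogaster it ran from -1.74 to -1.05, with a median of -1.24. Each of the 6 arrays exceeded 2-fold, with a mean of -1.31 ± 0.25 (SD) and a fitted value of -1.28 ± 0.089 (SE, 2.43-fold), which common-spread scaling took to -1.93. Of 4753 features, 61 were lower in this comparison. In the hybrid against D. melanogaster it ran from -2.01 to -1.58, with a median of -1.78, and all arrays again exceeded 2-fold. The mean was -1.79 ± 0.15 (SD, 6 arrays) and the fitted value -1.82 ± 0.089 (SE, 3.54-fold).

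Hybrid and D. simulans levels of gkt were much closer. The direct arrays ran from -1.04 to -0.12, with a median of -0.65, and a mean of -0.58 ± 0.37 (SD, 6 arrays). All 6 were below 0, and 1 exceeded 2-fold. The fitted value was -0.54 ± 0.089 (SE, 1.46-fold). It turned to 0.11 when the arrays were scaled to a common spread, a step that cannot change the sign of any direct array and acts here through the other comparisons. The order of gkt levels was D. melanogaster, then D. simulans, then the hybrid, with the last step not kept under that scaling.

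Counted together, 4 of 4 genes were at least 2-fold lower in the hybrid than in D. melanogaster, where 14.6% of all features were. Of the 4 genes, 3 were at least 2-fold lower than in D. simulans, where 13.2% of all features were, and the same 3 were below both parents by that margin, against 10.9% of all features. Between the parents 1 of 4, gkt, was at least 2-fold lower in D. simulans, against 2.21% of all features. The genes were chosen with these values known, so nothing is read from the counts. With deposited array medians left in place, the counts of the 4 genes stayed as given, whereas the share of lower values among all features beyond 2-fold rose from 49.1% to 59.2% in the comparison with D. melanogaster and from 48.9% to 59.8% in that with D. simulans.

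**Figure D2:**
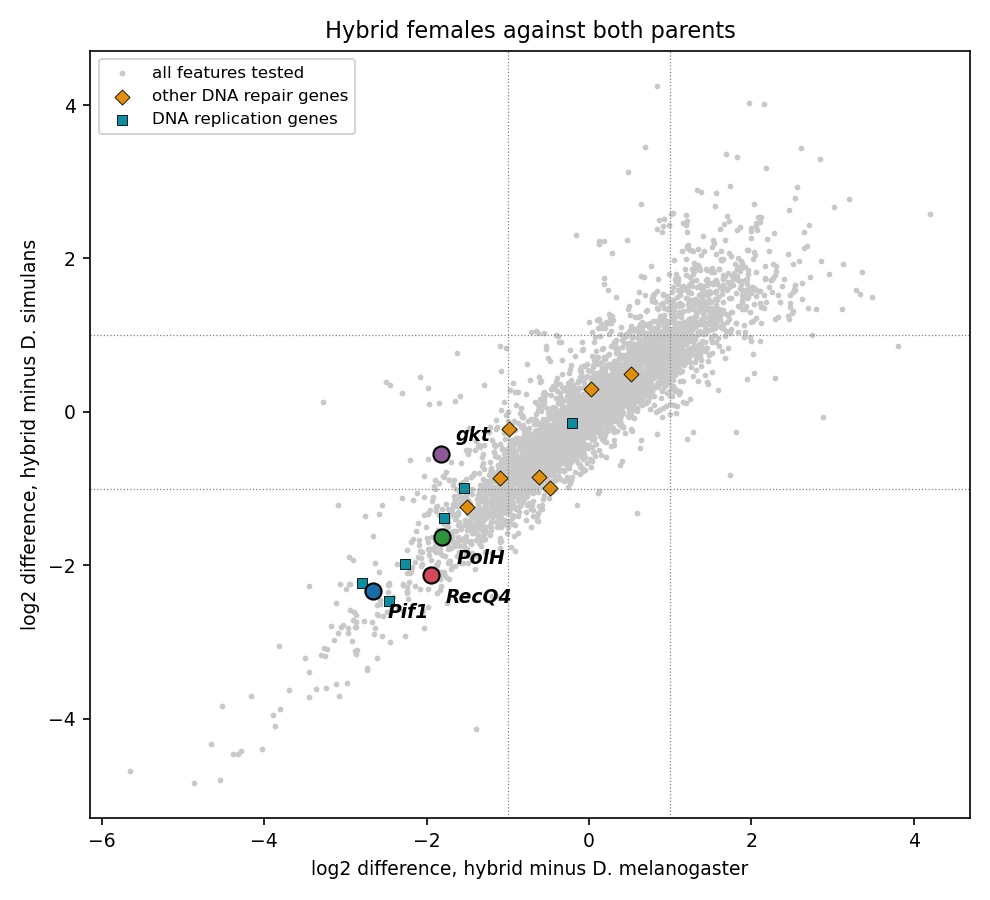
Fitted log2 difference of the hybrid from D. melanogaster (horizontal axis) and from D. simulans (vertical axis) for 4753 features, in the reading of channel 1 over channel 2. Both axes share the hybrid pool, dotted lines mark 2-fold, and the 4 genes, 7 other DNA repair genes and 6 DNA replication genes are marked. Pif1, RecQ4 and PolH sit in the lower left corner with the 4 replication genes that are at least 2-fold below both parents. The replication genes PolD2, at -1.54 and -0.99, and PolD3, at -0.20 and -0.15, do not reach that margin. The gene gkt lies above Pif1, RecQ4 and PolH, at -1.82 and -0.54.

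Array spread differed between the comparisons, so the place of each gene among all positions of the same array was also recorded, which no centring or scaling of an array can change. On arrays of hybrid against D. simulans, Pif1 had 1.54% to 2.15% of positions below it, and RecQ4 had 1.43% to 5.51%. PolH varied more, from 3.46% to 16.6%. For gkt the range was 18.5% to 44.8%, well inside the bulk of positions. Against D. melanogaster the ranges were 2.46% to 5.45% for RecQ4, 2.73% to 6.29% for PolH and 1.66% to 7.29% for gkt. Pif1 had 0.415% to 1.5% of positions below it on 5 arrays and 24.4% on the array that stood apart. In the parental comparison only gkt stayed at the low end on all arrays, with 0.579% to 3.58% of positions below it.

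**Figure D3:**
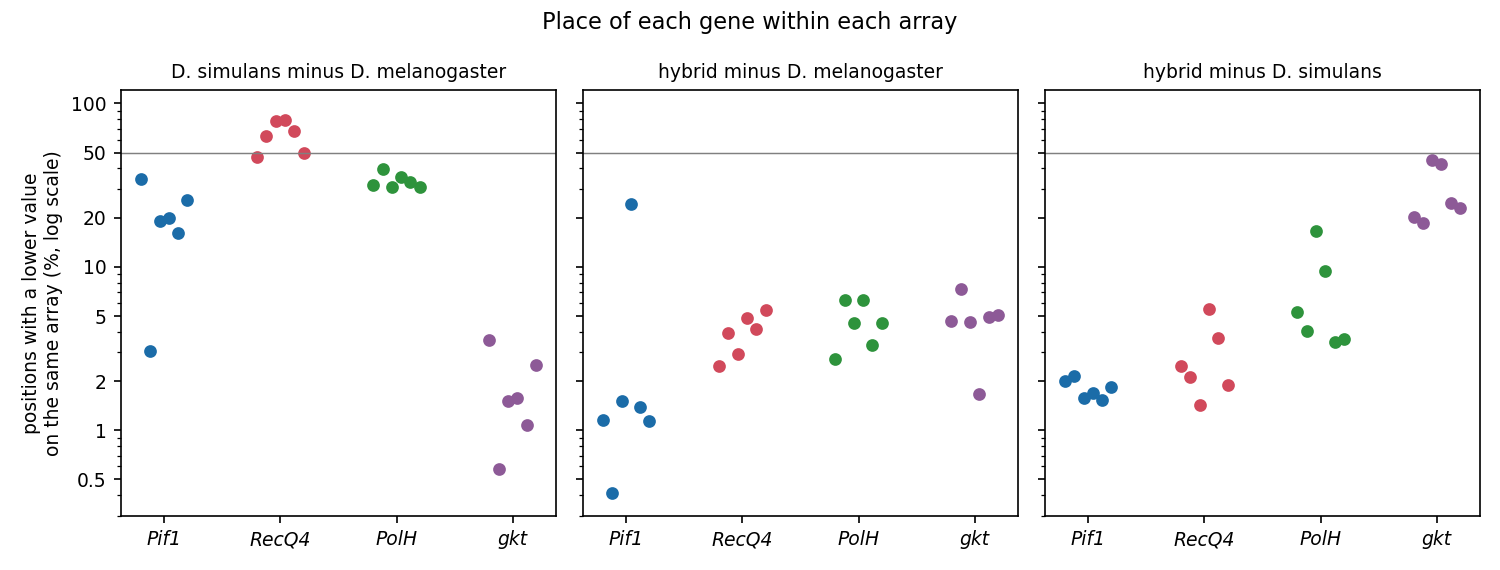
Share of positions on the same array with a lower value (vertical axis, percent on a log scale) for each gene and each of the 6 arrays per comparison, in the reading of channel 1 over channel 2. The horizontal line is the median position. Pif1, RecQ4 and PolH lie near the low end of most arrays with hybrid RNA. Exceptions are Pif1 at 24.4% on 1 array against D. melanogaster and PolH at up to 16.6% against D. simulans. The gene gkt moves from the low end between the parents to 18.5% or more against D. simulans.

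The same ratios were compared within technical subsets. Exchanging the channels kept the direction of every hybrid mean. For Pif1 against D. melanogaster the mean was -3.03 with hybrid RNA in channel 1 and -2.07 with it in channel 2, the set that held the array at -0.61. For RecQ4 against D. simulans the means were -1.93 and -2.41. The fitted channel term ran from -0.21 for Pif1 to 0.13 for RecQ4, and 90% of features lay between -0.205 and 0.203. On arrays of a pool against itself, Pif1 and PolH stayed between -0.05 and 0.05 and RecQ4 between -0.04 and 0.11. The gene gkt was above 0 on all 3 such arrays, from 0.09 to 0.25.

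Array titles carry numbers, and arrays of numbers 1 to 8 were set beside those of 14 to 18. Against D. melanogaster, direct means of the hybrid were -3.00 and -2.10 for Pif1, -2.12 and -1.68 for RecQ4, -1.91 and -1.73 for PolH, and -1.73 and -1.85 for gkt, with 3 arrays in each set. Against D. simulans they were -2.43 and -2.47 for Pif1, -2.19 and -2.13 for RecQ4, -1.48 and -1.89 for PolH, and -0.54 and -0.65 for gkt, with 4 and 2 arrays. The parental mean of gkt was -1.31 in both sets. No direct mean of the hybrid changed sign between the sets. For Pif1 against D. melanogaster, the set of 14 to 18 held the array at -0.61, and its other arrays stood at -2.735 and -2.963.

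The 3 comparisons form a loop, so the parental difference can also be reached through the hybrid arrays. For gkt the direct value was -1.31 and the value through the hybrid -1.22. For PolH they were -0.16 and -0.20, and for RecQ4 0.13 and 0.27. Pif1 closed least well, with -0.43 directly and -0.11 through the hybrid. Each of these Pif1 values includes an array that stood apart, at -1.16 in the direct set and at -0.61 in hybrid against D. melanogaster. The loop was not recomputed without them. Over all features the mismatch of the loop had an SD of 0.191, which 3 of the 4 genes stayed within and Pif1, at -0.32, exceeded.

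Set against the average of the 2 parents on the log2 scale, the hybrid stood at -2.50 ± 0.16 for Pif1, -2.03 ± 0.084 for RecQ4, -1.72 ± 0.092 for PolH and -1.18 ± 0.077 for gkt (SE). Of 4753 features, 72, 119, 188 and 477 had a lower value, in the same order. The middle 90% of all features lay between -1.59 and 1.56. Pif1, RecQ4 and PolH were outside this range and gkt was inside it.

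Other DNA repair genes were described from a list. This list of 85 names, drawn up with earlier results known, matched 82 genes, of which 7 were measured. Ogg1 and mrn had positions but too few values. In the hybrid, 2 of 7 were at least 2-fold lower than in D. melanogaster (14.6% of all features) and 1 of 7 lower than in D. simulans (13.2%). Their median against the parental mean was -0.73, where the median of all features was 0.02. The TFIIH subunit gene Tfb1 stood at -1.51 ± 0.073 against D. melanogaster and -1.24 ± 0.073 against D. simulans (SE), the single one of the 7 below both parents by 2-fold. XRCC1, the scaffold of single-strand break repair, stood at -1.10 ± 0.14 and -0.86 ± 0.14.

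The nuclease gene mre11, which acts on broken ends, stood at -0.48 ± 0.083 against D. melanogaster and -0.99 ± 0.083 against D. simulans, just short of 2-fold. The count below D. simulans became 2 of 7 without array 2 or 5 of D. simulans against D. melanogaster, array 2 or 3 of hybrid against D. melanogaster, or array 4 of hybrid against D. simulans. Gen, a nuclease of branched DNA, stood at -0.61 ± 0.19 and -0.84 ± 0.19, and with title numbers 1 to 8 alone its first value turned to 0.27. The damage response factor gene p53 stood at -0.99 ± 0.063 and -0.23 ± 0.063, and its value against D. simulans turned to 0.16 under common-spread scaling. Both genes on the other side of 0 were mus81, a structure-specific nuclease gene at 0.03 ± 0.10 and 0.30 ± 0.10, and Tdg, a DNA glycosylase gene at 0.52 ± 0.11 and 0.50 ± 0.11. The first value of mus81 changed sign in 6 of 28 other settings, with a lowest value of -0.27. In the parental comparison 0 of 7 exceeded 2-fold in either direction, against 3.35% of all features, with values from -0.76 for p53 to 0.51 for mre11.

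Genes of DNA replication were counted in the same way. Of 48 listed names 6 were measured, and 5 were at least 2-fold lower than in D. melanogaster (14.6% of all features) and 4 lower than in D. simulans (13.2%). Over the settings the first count ran from 4 to 5 and the second from 3 to 5. The median of the 6 genes against the parental mean was -1.86. RnrL, the large subunit of ribonucleotide reductase, stood at -2.51 ± 0.22, Caf1-180, a subunit of chromatin assembly factor, at -2.46 ± 0.10, and Prim2, a primase subunit, at -2.12 ± 0.12. PolD3, a subunit of DNA polymerase delta, stood at -0.17 ± 0.11. The replication genes and the repair list were drawn up with earlier results known, so their counts are descriptions.

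**Figure D4:**
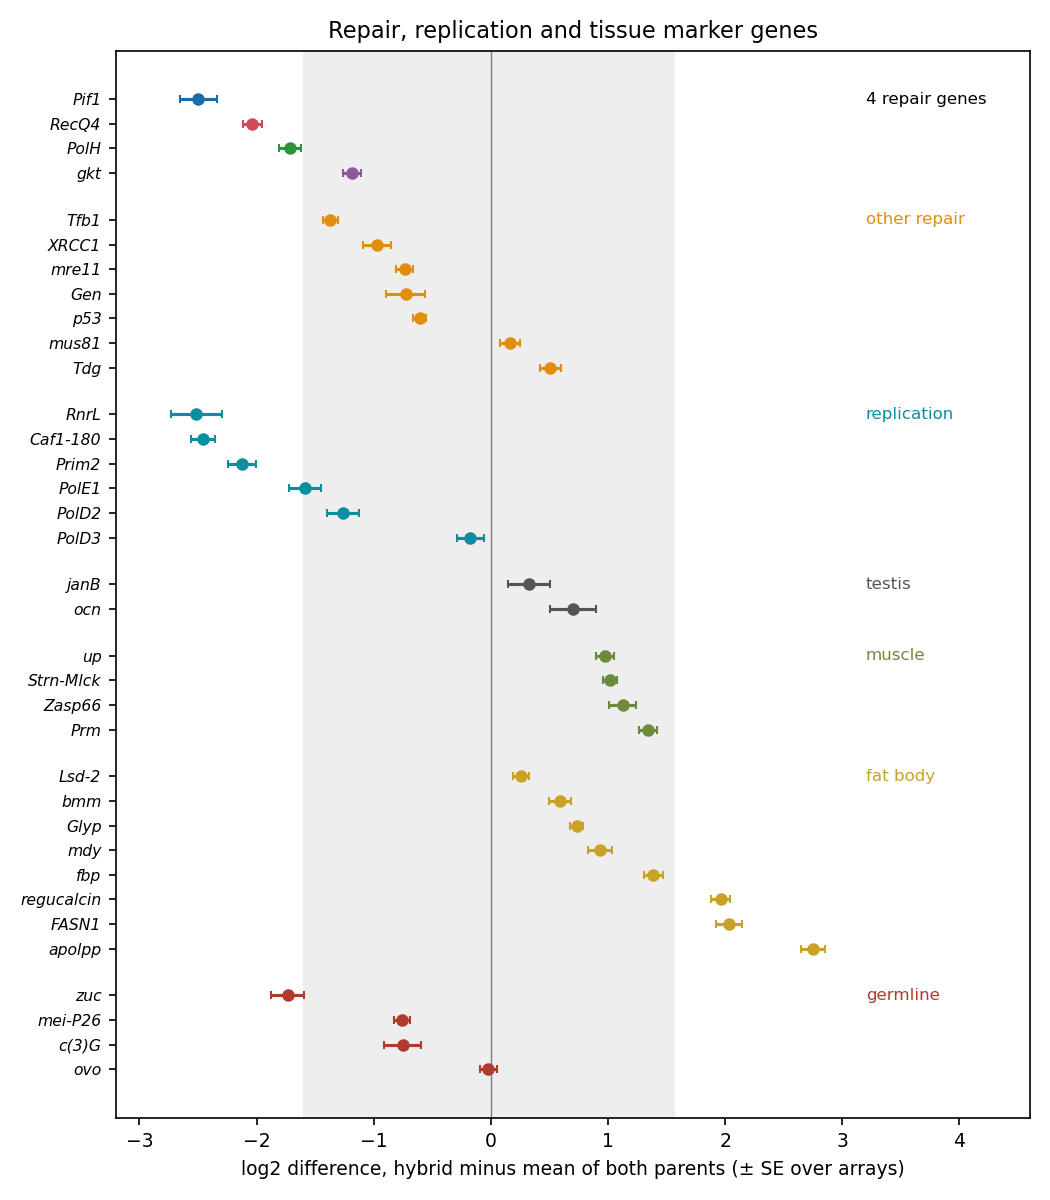
Fitted log2 difference of the hybrid from the mean of both parents (horizontal axis, ± SE over arrays) for the 4 genes and all measured genes of the repair, replication and tissue lists, in the reading of channel 1 over channel 2. The grey band holds the middle 90% of all features. Pif1, RecQ4 and PolH lie left of the band with RnrL, Caf1-180, Prim2 and the germline gene zuc, whereas all 8 fat body genes lie right of 0.

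Markers of tissues were set beside these values. Of 33 listed female germline genes 4 were measured, and 1 of 4 was at least 2-fold below both parents (10.9% of all features). Against the parental mean the 4 genes ran from -1.74 for zuc to -0.02 for ovo, with a median of -0.75. The piRNA pathway nuclease gene zuc stood at -1.74 against D. melanogaster and -1.73 against D. simulans. The synaptonemal complex gene c(3)G stood at -1.65 and 0.14, the translational regulator gene mei-P26 at -0.97 and -0.54, and ovo at -0.01 and -0.04. The values of ovo changed sign with scaling or single arrays, and that of c(3)G against D. simulans was negative on the direct arrays alone and with title numbers 14 to 18 alone. No eggshell gene of the 18 listed was measured.

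Of 8 measured fat body genes (23 listed), 3 were at least 2-fold above both parents, where 10.6% of all features were. Against the parental mean they ran from 0.26 to 2.75, led by apolpp, FASN1 and regucalcin at 2.75, 2.04 and 1.96. Of 4 measured muscle genes (22 listed), 2 were at least 2-fold above both parents, and they ran from 0.98 to 1.34 against the parental mean, with Prm at 1.34, Zasp66 at 1.13 and Strn-Mlck at 1.02. Of 2 measured testis genes (18 listed) 0 were, with ocn at 0.70 and janB at 0.32 against the parental mean, and janB fell below 0 against each parent with title numbers 14 to 18 alone. Ratios show no absolute level, so no marker can be called absent. The part of tissue makeup in the values of Pif1, RecQ4, PolH and gkt was not tested.

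Likeness to other named genes was measured as the root-mean-square difference of log2 ratios over the arrays that both genes shared, among 1379 candidates. The arrays share 3 RNA pools. For RecQ4 the nearest was CG18870 at 0.21 over 16 arrays, followed by dgrn, a ubiquitin ligase gene, at 0.29 and rumi, which encodes a glycosyltransferase acting on Notch, at 0.30. For PolH the nearest were CG13096 at 0.26, rumi at 0.27 and heph, an RNA-binding protein gene, at 0.28. These distances compare with medians over all candidates of 1.72 for RecQ4 and 1.48 for PolH. The parental difference of the nearest genes of RecQ4 and PolH ran from -0.10 to 0.20 for the 5 genes. The parental arrays were among those used to pick them, so a like parental value follows from the choice.

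Pif1 had no equally close neighbour over all 18 arrays. Its distances include both arrays on which Pif1 stood apart, at -0.61 and -1.16, and were not recomputed without them. Its nearest genes were rdx, a ubiquitin ligase adaptor gene, at 0.46, Caf1-180 at 0.53 and the kinase gene S6KL at 0.58, with a median over candidates of 2.14. Fitted values of these 3 against D. melanogaster ran from -2.61 to -2.46. The nearest genes of gkt were CG14005 at 0.26, Ran, the GTPase gene of nuclear transport, at 0.35 and CG1789 at 0.40, with a median of 1.40. Each of them was lower in D. simulans than in D. melanogaster, at -1.37, -0.98 and -0.94, and CG14005 stood at -0.62 in the hybrid against D. simulans. These genes were picked on the same arrays, so their likeness to gkt in these comparisons is built in. The value of CG14005 against D. simulans, like that of gkt, turned positive under common-spread scaling, at 0.08. Among the 4 genes themselves, RecQ4 and PolH were the closest pair at 0.45, and Pif1 and gkt the most distant at 1.41, each over 18 arrays.

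**Figure D5:**
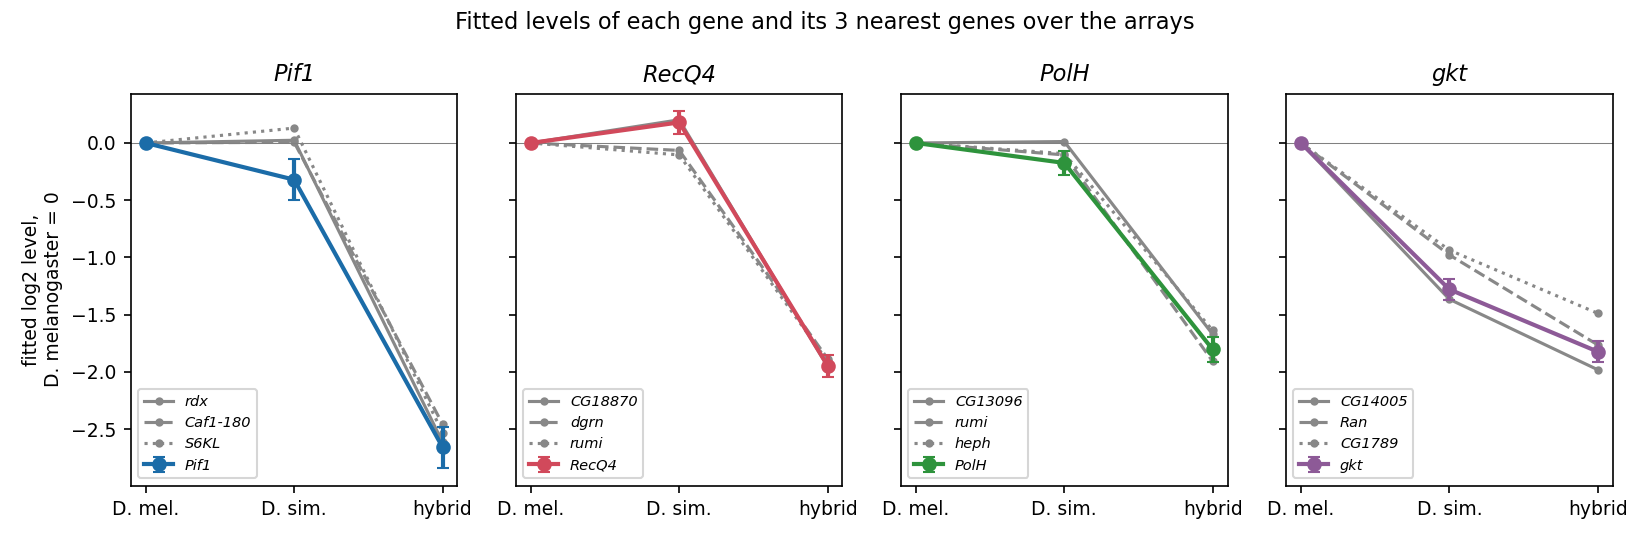
Fitted log2 levels (vertical axis, D. melanogaster set to 0) in the 3 pools for each gene in colour, with SE over arrays, and for its 3 nearest named genes in grey, in the reading of channel 1 over channel 2. RecQ4, PolH and Pif1 share a shape with near-equal parents and a low hybrid. In the main fit gkt and its neighbours step down from D. melanogaster to D. simulans to the hybrid. Under common-spread scaling the last step turned to 0.11 for gkt and 0.08 for CG14005, and stayed below 0 for Ran and CG1789. Neighbours were picked on these same arrays, so their likeness to each gene is built in.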

How the data were processed

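RNA pools of D. melanogaster, D. simulans and hybrid females were compared on 21 two-channel cDNA arrays, 18 of them with different RNAs. The authors deposited 1 linear ratio per position and array. How it was normalized is not given in the sources used here, nor is the numerator. Array medians of the deposited ratios ran from 0.852 to 1.11. Signal over background is unknown, and the number of arrays limits the precision. Of 6101 positions, 1145 held no value. Symbols of the platform annotation were updated by gene ID through a RefSeq gene table (Release 6).

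Ratios were taken to log2, each array's median was subtracted, and positions of a gene were averaged. Features needed at least 4 of 6 values per pair, which left 4753. A linear model over 18 arrays (limma 3.58.1, R 4.3.3) had terms for D. simulans and hybrid RNA and a channel term, with moderated SEs. It was tested on simulated data. Since each strain is 1 pool, arrays of a pair are not biological replicates and a feature was called at 2-fold, with no p-value. The 4 genes, the lists and the reading of the sign were chosen with earlier results of these data known. Named genes were the 4 genes, the 3 nearest genes of each, all measured repair genes, and in other lists the 3 largest values against the parental mean. PolD3 and ovo were added after their values were seen. A planned motif search in promoters was not run. Alternatives covered centring, scaling, the channel term, filters, title numbers and left-out arrays.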

Additional observations from a re-analysis of the deposited data

Results flagged for a closer look

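Among 12 sets of 6 arrays (4 genes in 3 comparisons), a Dixon test at the 95% level marked 2, both of Pif1, where chance alone marks about 1 in 20. On array 4 of hybrid against D. melanogaster, Pif1 stood at -0.61, with a gap to the next array of 0.677 of the range. On array 2 of D. simulans against D. melanogaster it stood at -1.16, with a gap of 0.781 of the range. Leaving out both arrays was tried after seeing the data, and the fitted values of Pif1 were then -2.86 against D. melanogaster, -2.50 against D. simulans and -0.36 between the parents.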

How the results depend on the processing

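At 2-fold, 4, 3 and 1 of the 4 genes were lower (hybrid against D. melanogaster, hybrid against D. simulans, D. simulans against D. melanogaster) in the main model and in each of 29 other settings. Dropping the channel term, changing the filters and taking each position alone left every value of the 4 genes unchanged, so these settings could not alter the counts. Common-spread scaling shrinks the wide ratios of hybrid arrays and stretches those of parental arrays. It gave for the hybrid against D. melanogaster -2.06 for Pif1, -1.36 for RecQ4 and -1.37 for PolH, and against D. simulans -1.57 for Pif1, -1.61 for RecQ4, -1.12 for PolH and 0.11 for gkt. Between the parents it gave -1.93 for gkt and -0.25 for PolH. With title numbers 14 to 18 alone, Pif1 stood at -1.95 against D. melanogaster and -1.85 against D. simulans, and PolH at -0.051 between the parents, and with 1 to 8 alone PolH stood at -0.25. The set of 14 to 18 holds the Pif1 array at -0.61. Its direct means were -2.47 for Pif1 against D. simulans and -0.15 for PolH between the parents. The parental value of PolH was -0.21 with both arrays on which Pif1 lay apart left out, and ran from -0.21 to -0.12 with single arrays left out. Without single arrays the hybrid values against D. melanogaster ran from -2.90 to -2.57 for Pif1 and against D. simulans from -2.46 to -2.25.

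Features called between the parents numbered 159 at 2-fold, 396 with common-spread scaling, 239 with title numbers 1 to 8, 546 at 1.5-fold and 2223 by limma's adjusted p over arrays, which measures array spread only. The hybrid against D. melanogaster gave 1417, 857 scaled, 2657 at 1.5-fold and 3983 by limma's adjusted p. Against D. simulans there were 1287, 746, 2470 and 3908, and outside both parents 1022, 354, 2101 and 3432. Repair genes at least 2-fold lower than D. simulans numbered 0 to 4 over the settings, against 1 in the main model. No paired analysis was possible because replicate numbers here are names given in order of accession. Some arrays share a title number, and with it as a random block (correlation 0.159) each value of the 4 genes moved by less than 0.05, with -2.64 for Pif1 against D. melanogaster and 1004 features outside both parents.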
